A study of Drosophila melanogaster with 8 samples.

Results

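The reads described here carry A or G at one or more places where the deposited long terminal repeat (LTR) of Invader 4 has C. They were chosen by their aligned bases, and gaps and N did not count. Of 16435 reads in 8 libraries, 2925 (17.8%) had lost a cytosine in this sense. A further 11216 reads (68.2%) had only C or T at all 27 cytosines of the amplicon and served as the comparison. The remaining 2294 reads had no A or G at a cytosine but a gap or N at one, and entered the comparisons only where stated. "Lost" is relative to the deposited sequence, and which base is older was not tested.

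Invader 4 is an LTR retrotransposon of Drosophila melanogaster, an element that moves through an RNA copy and leaves many copies in the genome. Its LTR holds the start of transcription, and old copies drift apart by base changes. Bisulfite treatment turns unmethylated cytosine into uracil, which is read as T, while 5-methylcytosine stays C. It does not turn C into A or G, so a read with A or G there reports a difference in sequence or an error. Where it is a difference in sequence, the place has no C left to methylate. A copy in which C had become T cannot be seen in these data, because conversion gives the same base.

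The libraries came from whole bodies of w1118 flies (called wild type) and of w1118 flies homozygous for a Dnmt2 mutation, of mixed sex and 3 days after hatching. Dnmt2 is a member of the DNA methyltransferase family that methylates transfer RNA. Each genotype was sampled under standard culture, after heat shock (37 °C for 1 h, then 5 h at room temperature), and after 1 day and 3 days of recovery. There was 1 library for each combination and hence no replicate. The labels do not name the mutant allele. The LTR amplicon, 149 bases long, was read by 454 sequencing, with between 1505 and 2670 reads per library that gave between 39587 and 70412 calls of C or T. The amplicon does not contain the Dnmt2 gene, so the genotype labels could not be checked against it.

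The libraries stood apart in their LTR copies across the labels. The 4 with the lower library numbers in the deposited file names were heat shock and 3 days of the wild type together with standard and 1 day of the mutant. The 4 with the higher numbers were standard and 1 day of the wild type together with heat shock and 3 days of the mutant. These are called the lower-numbered and the higher-numbered libraries. The division was noticed in these data, so values by number are descriptions without a test. Of 35 base differences carried by at least 0.5% of reads, 37.1% did not overlap between them. Genotype and library number cannot be told apart within any stage.

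The 3 losses treated first lie in different surroundings. They are shown with 4 bases on each side, as in the deposited sequence and with only the most frequent base of the loss reads put in. The lost place is in capitals, and the other cytosines of the loss reads before conversion were not observed. Positions count from 1 at the 5′ end.
C15, reference: ctgtCgagc
C15, lost: ctgtAgagc
C45, reference: gcctCtgca
C45, lost: gcctGtgca
C102, reference: atgaCaatg
C102, lost: atgaGaatg

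C15 is followed by G, so its loss removes a CpG, the dinucleotide that carries most DNA methylation in vertebrates. C45 is followed by T and C102 by A. At each of these places 1 base made up nearly all of the losses. A took 99.6% of the 484 losses at C15, G took 98.6% of the 423 at C45 and 98.2% of the 617 at C102. Where a change is written C15A, the base of the deposited sequence comes first and the base of the read last.

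Losses were concentrated at a few cytosines. At least 0.5% of reads had lost C129 (1352 reads, 8.23%), C102 (3.75%), C15 (2.94%), C45 (2.57%), C112 (423 reads, 2.57%), C130 (152 reads, 0.925%) or C21 (0.681%). The last place inside that limit was C21, and the first outside it was C33, lost in 72 reads (0.438%). These 7 places accounted for 2733 of the 2925 loss reads, and the other 192 had lost only cytosines elsewhere. The median cytosine was lost in 0.116% of reads, and every one of the 27 was lost in some read. A or G also occurred at each of the 32 reference thymines, with a median of 0.0821% of reads and a highest value of 2.78%, and 4 thymines reached 0.5%. Of the 8 CpG cytosines only C15 reached 0.5%, against 3 of 10 CpA, 2 of 5 CpT and 1 of 4 CpC cytosines.

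**Figure D1:**
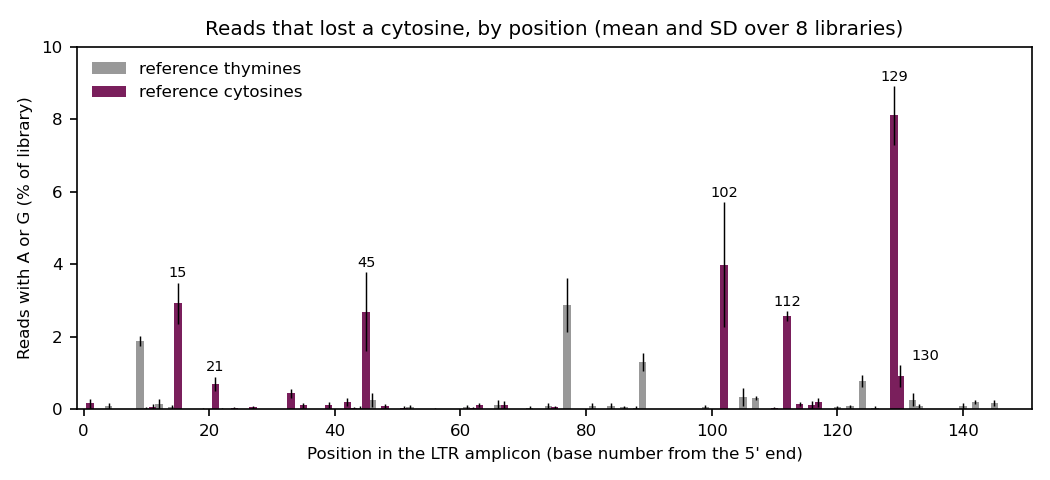
Share of reads with A or G (% of a library, mean with SD over 8 libraries) at each reference cytosine and thymine, against the position in the amplicon. C129 stands highest, followed by C102, C15, C45 and C112, while most other positions lie near 0.

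Most loss reads had lost a single cytosine. There were 2367 with 1 loss (80.9% of loss reads), 153 with 2 (5.23%), 392 with 3 (13.4%) and 13 with 4 or more. The reads with no loss numbered 13510. The high count at 3 came with C102G, C112A and C129A on the same reads: C102G and C112A occurred together in 393 reads, which is 64.9% of the 606 C102G reads and nearly all of the 418 C112A reads. C129A was on 396 of the 418 C112A reads (94.7%), but these made up only 29.5% of C129A reads. C15A and C45G were together in 0 reads, out of 482 and 417.

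The share of loss reads overlapped between the labelled genotypes. In wild type it was 16.2% at standard, 19.8% after heat shock, 18.8% after 1 day and 19.7% after 3 days. In the Dnmt2 mutant it was 18.6%, 16.9%, 18.8% and 15.1% at these stages. The mean was 18.6% ± 1.69 in wild type and 17.3% ± 1.73 in the mutant (SD, n = 4 libraries each), and the groups overlapped. The mutant minus wild type difference was -1.28 ± 3.13 percentage points (SD over 4 stages), lower in 2 of 4 stages (exact permutation p = 0.5, two-sided, adjusted p = 0.833 over 8 shares). The smallest p this design allows is 0.13. The difference was -1.07 points among lower-numbered and -1.48 among higher-numbered libraries, each of which sets different stages against each other. Its sign turned when the genotypes of heat shock and of 3 days were exchanged (2.51 points), as the library numbers would group them.

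Single positions gave no call between genotypes either, with adjusted p from 0.833 to 1.0. C112 was the steadiest. It was lost in 2.73% (standard), 2.74% (heat shock), 2.51% (1 day) and 2.73% (3 days) of wild type reads. The mutant values were 2.52%, 2.47%, 2.48% and 2.42%. The mutant was lower at 4 of 4 stages, by -0.203 ± 0.124 points (exact permutation p = 0.13, the smallest possible), and the ranges overlapped. With that exchange the C112 difference was 0.0843.

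C15, C45 and C102 varied more, and for C45 and C102 the variation followed the library number. C102 was lost in 5.31% of reads in wild type heat shock, 5.90% in wild type 3 days, 5.78% in mutant standard and 5.39% in mutant 1 day. It was lost in 2.47% of reads in wild type standard, 2.38% in wild type 1 day, 2.33% in mutant heat shock and 2.33% in mutant 3 days. The lower-numbered libraries were thus all above the higher-numbered ones, 5.59% ± 0.288 against 2.38% ± 0.0673 (SD, n = 4 libraries each).

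C45 followed the same order with a smaller gap. It was lost in 4.51% of wild type heat shock, 3.60% of wild type 3 days, 2.52% of mutant standard and 3.53% of mutant 1 day reads. The higher-numbered libraries had 1.31% in wild type standard, 1.74% in wild type 1 day, 2.33% in mutant heat shock and 1.98% in mutant 3 days. The numbers did not overlap, with mutant standard the nearest to the higher-numbered libraries.

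C129 went the other way, at 7.49% ± 0.291 of reads in lower-numbered and 8.72% ± 0.663 in higher-numbered libraries, again without overlap. C15 overlapped. Its loss ranged from 2.0% (mutant 1 day) to 3.04% (wild type 3 days) in the lower-numbered libraries and from 2.95% (mutant 3 days) to 3.95% (wild type 1 day) in the higher-numbered ones. As wild type standard is higher-numbered and wild type heat shock lower-numbered, the wild type rise of C102 from 2.47% to 5.31% after heat shock and the mutant fall from 5.78% to 2.33% cannot be told apart from library number.

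Other differences on the loss reads were examined next. A difference is a base other than the deposited one at another position, carried by at least 0.5% of all reads. T at a cytosine was not counted. A difference may itself be a lost cytosine, such as C102G, C112A or C129A, and the reads were also chosen by those bases. The p of such a pair describes how losses fall together among loss and kept reads and is no separate support. For each lost position with at least 5 loss reads in every library, the share of loss reads with the difference was compared with its share among reads with C or T at that position. The 8 library differences were tested with an exact sign-flip permutation test, two-sided, adjusted over 273 pairs. Of these pairs 69.2% were called at an adjusted p under 0.05, and 16.8% were called as higher in the loss reads. An adjusted p of 0.0129 below stands for the smallest exact p, 0.00781, where all 8 libraries had 1 direction. A difference that is rare in the kept reads is likely to be on 0 of a few loss reads without any linkage, and 8 such zeros give that p. Of the 143 calls in the lower direction, 100 expected under 1 read in some library at the share of the kept reads, and 8 expected at least 3 in every library, a limit set after the data were seen. Lower calls outside those 8 are therefore not read as results, and observed and expected reads are given in their place.

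C45G and C21G were mostly on reads that otherwise matched the deposited sequence. Of 417 C45G reads 77.2% carried no other difference, as did 77.7% of C21G reads and 31.5% of 482 C15A reads. For these positions no difference was called as higher in the loss reads. Among reads that had lost C45, C129A was on 3 reads where the share in kept reads gave an expectation of 34.6, and G55T was on 2 where 29.8 were expected. G23A was on 3 of these reads (24.9 expected) and G26A on 0 (19.8 expected). Among reads that had lost C15, C129A was on 4 with 41.1 expected, at 0.837% ± 1.16 against 8.28% ± 0.822 of reads that kept it (SD, n = 8 libraries, adjusted exact permutation p = 0.0129, lower in 8 of 8). At least 3.23 reads of this kind were expected in every library. G23A was on 0 of the C15 loss reads (25.6 expected) and C102G on 2 (17.4 expected). C21 was lost in only 10 to 22 reads of a library. C129A was on 0 of its loss reads with 9.20 expected and G55T on 0 with 8.21 expected, too few per library for the test.

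The exception for C15 was G55T, and it depended on the library. Among C15A reads, G55T was on 75 of 84 in wild type standard (89.3%, 95% Wilson interval 80.9% to 94.3%) and 77 of 92 in wild type 1 day (83.7%). It was on 58 of 61 in mutant heat shock (95.1%) and 64 of 67 in mutant 3 days (95.5%, 87.6% to 98.5%). In the other libraries it was on 1 of 44 C15A reads in wild type heat shock (2.27%, 0.402% to 11.8%), and on 0 of 49 in wild type 3 days. It was on 0 of 43 in mutant standard and 0 of 42 in mutant 1 day, where the interval reached 8.38%. So the higher-numbered libraries held C15A mostly with G55T, and the lower-numbered ones almost always without it.

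Over the 8 libraries G55T was on 45.6% ± 48.3 of reads that had lost C15 and on 5.90% ± 0.564 of those that kept it. The difference of 39.7 ± 48.3 points was not called (adjusted exact permutation p = 0.159, higher in 4 of 8 libraries). Reads that kept C15 had G55T in 4.89% to 6.59% in every library, so G55T itself was not restricted to either set. C15A with G55T was found in 1 of 7077 lower-numbered and 274 of 9358 higher-numbered reads. C15A without G55T was found in 177 and 30 reads, so the summed loss at C15 differed less between the libraries than either form. The same division holds within each genotype, since each has libraries of both kinds.

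C102G also came in 2 forms. One was a strongly diverged copy with 11 differences from the deposited LTR: G20T, A37G, G60A, A69G, G72T, G95A, C102G, G108A, A111G, C112A and C129A. The other carried C102G and hardly any of the rest. Of 606 C102G reads, 337 had all 11 differences and 208 had C102G alone among the 11. Reads with at least 6 of the 11 are called the diverged copy. The 11 differences were picked from these same reads, and the limit was set after the distribution was seen. There were 413 in all, of which 393 had C102G. Only 6 C102G reads had exactly 6 and 2 had exactly 5.

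The diverged copy was present at a steady level. It made up 2.43% to 2.73% of reads in lower-numbered and 2.37% to 2.66% in higher-numbered libraries. C102G without the set behaved otherwise. It was 2.63% of reads in wild type heat shock, 3.17% in wild type 3 days, 3.26% in mutant standard and 3.00% in mutant 1 day. In wild type standard it was on 1 of 2670 reads (0.0375%). It was on 0 of 2352 reads in wild type 1 day, 0 of 2061 in mutant heat shock and 0 of 2275 in mutant 3 days, which allows shares of up to 0.128%, 0.146% and 0.132%. The higher total of C102 loss in lower-numbered libraries was therefore made of this second form.

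**Figure D2:**
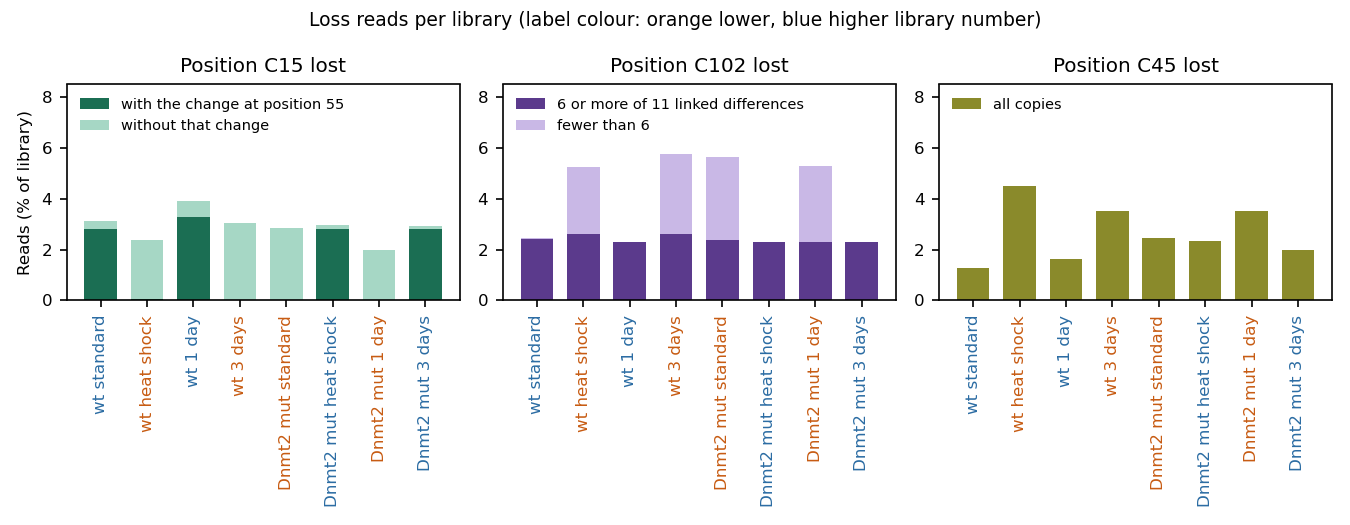
Share of reads in each of the 8 libraries (% of the library) with the leading base at 3 lost positions, split by other differences on the read. Higher-numbered libraries (blue labels) carry the C15 loss mostly with the change at position 55 and almost no second form of the C102 loss, and lower-numbered ones (orange labels) the reverse.

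The differences found most often with C102 loss were those of the diverged copy. That set was picked from these same reads, so this describes the set and gives it no further support. Of 34 differences, 12 were called as higher in the loss reads, among them T9A and T89A, which are not in the set. G95A was on 71.7% ± 29.3 of C102 loss reads and 0.0708% ± 0.0494 of reads that kept C102 (SD, n = 8 libraries, adjusted exact permutation p = 0.0129, higher in 8 of 8). G108A, C112A and A111G were on 71.7%, 71.5% and 71.4% of C102 loss reads with the same p. The large SD reflects a range from 42.5% to 100% for G95A.

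C112 was lost almost only on the diverged copy. G108A was on 98.0% ± 1.72 of C112 loss reads and A111G on 97.0% ± 2.54, against 0.0828% and 0.563% of reads that kept C112 (SD, n = 8 libraries, adjusted exact permutation p = 0.0129 each). G72T and A69G were on 94.3% and 95.1% (same p). A single one of the 418 C112A reads had no other difference, and the median was 11 others.

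C129, the cytosine lost most often, was shared by several kinds of copy. Of 34 differences 16 were called as higher in the loss reads. A69G was on 38.6% ± 4.09, A111G on 33.6% ± 3.70, G72T on 32.8% ± 3.81 and C112A on 30.1% ± 3.59 of C129 loss reads (SD, n = 8 libraries, adjusted exact permutation p = 0.0129 each). Of 1344 C129A reads 19.6% had no other difference. Outside the diverged copy 948 reads carried C129A. Among them 300 also had G93A and A94T, 99 had A17G and G83A, and 84 had G47A and A69G. These combinations were picked after they were seen.

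Of the 3 combinations with C129A, only that with G47A and A69G did not overlap between lower-numbered and higher-numbered libraries. Of all 35 base differences 37.1% did not overlap, G47A and A69G among them, so this count is not read as a result. That with G93A and A94T made up 1.33% to 1.88% of lower-numbered and 1.76% to 2.13% of higher-numbered libraries, which overlap. That with A17G and G83A also overlapped, at 0.483% to 0.930% and 0.440% to 0.680%. That with G47A and A69G was in 0 of 7077 lower-numbered reads, which allows up to 0.0424%, and in 0.850% to 0.936% of each higher-numbered library.

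**Figure D3:**
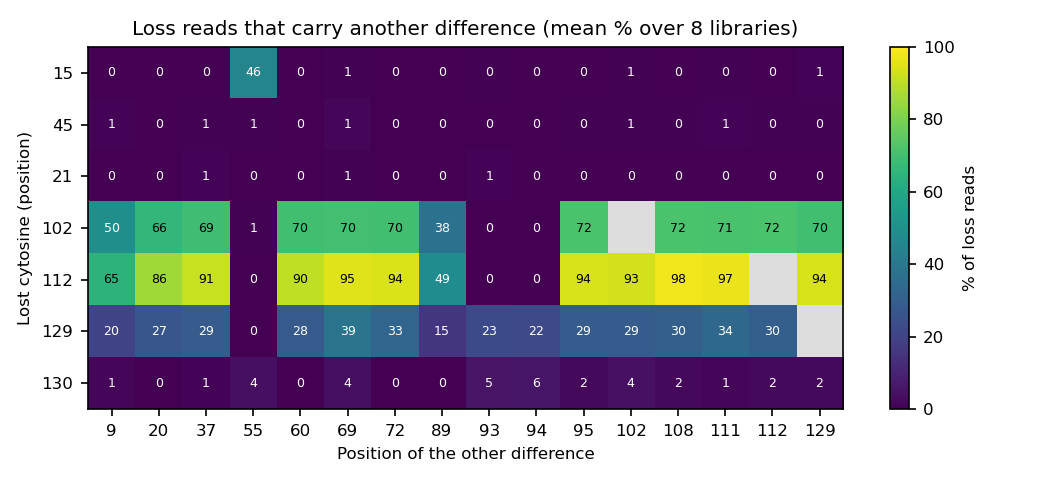
Share of loss reads (mean % over 8 libraries) that carry a difference at another position, for 7 lost cytosines (rows) and the positions where some row reaches 10% (columns); the lost position itself is grey. The rows of C102 and C112 share a block of positions that the row of C129 holds at a lower level, while C15, C45 and C21 are near 0 apart from position 55 in the row of C15.

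C130 was lost in 9 to 30 reads of a library. A94T was the only one of 34 differences called as higher, on 5.74% ± 3.10 of C130 loss reads against 2.0% ± 0.320 (SD, n = 8 libraries, adjusted exact permutation p = 0.0237, higher in 7 of 8). This call rests on 9 reads in all, with 3.17 expected. Between 0.123 and 0.723 reads were expected in a library, so a single read could make a library higher. C129A was on 4 C130 loss reads with 13.1 expected, and G72T on 0 with 4.41 expected. Of 152 C130A reads 38.2% had a gap at A147, near the end of the amplicon, against 4.54% of other reads. The part of these gaps in the C130 losses was not tested.

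The last comparison asks whether copies that lost a cytosine retained more or less C at the cytosines they still had. This measure was not used to choose the reads. The level was the number of C calls over C and T calls, and the comparison reads were weighted to the same cytosines within each library. Comparison reads had no gap or N at a cytosine, while loss reads could have them. In loss reads it was 1.57%, 1.69%, 1.84% and 1.88% in wild type (standard, heat shock, 1 day, 3 days). In the mutant it was 1.59%, 1.51%, 1.93% and 1.75%. The comparison reads had 1.64%, 1.93%, 1.88% and 1.68% in wild type and 1.72%, 1.54%, 1.77% and 1.54% in the mutant. The loss reads were the higher in 3 of 8 libraries and the lower in 5.

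Over the libraries the level was 1.72% ± 0.154 in loss reads and 1.71% ± 0.141 in comparison reads (SD, n = 8 libraries). The difference of 0.00788 ± 0.164 points did not pass (exact permutation p = 0.891, adjusted p = 0.891 over 5 groups). Its 95% interval, from inverting the permutation test, ran from -0.136 to 0.178 points. C retention was compared with methylated or unconverted standards nowhere here, so methylation and incomplete conversion were not told apart. Counting identical reads once gave -0.730 points (adjusted exact permutation p = 0.0130). That setting gives a sequence read many times the weight of 1 read, and the cause of the change was not tested. A retained C by itself makes a read distinct, so that setting depends on the level compared. Its p-values are not read as results.

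Of the 3 positions, C45 loss reads had the highest level. They retained 2.01% ± 0.313, against 1.72% ± 0.138 in comparison reads, and were higher in 5 of 8 libraries (difference 0.289 ± 0.302 points, 95% interval -0.0240 to 0.543, exact permutation p = 0.0625, adjusted p = 0.312). The values ran from -0.0493 points in wild type 1 day to 0.763 in mutant 1 day. C102 loss reads had the lowest of the 3, 1.51% ± 0.469 against 1.69% ± 0.142, lower in 6 of 8 libraries. Their difference was -0.180 ± 0.418 points (95% interval -0.544 to 0.204, exact permutation p = 0.242, adjusted p = 0.605). C15 loss reads retained 1.77% ± 0.397 against 1.72% ± 0.132, a difference of 0.0570 ± 0.450 points (interval -0.313 to 0.431, adjusted exact permutation p = 0.891). Counting identical reads once turned the C45 difference to -0.0533 points and the C15 difference to -0.305, and took that of C102 to -0.927 (adjusted exact permutation p = 0.0130). The other 1406 loss reads differed by -0.0207 ± 0.172 points (interval -0.166 to 0.115, adjusted exact permutation p = 0.891). Taken by single position, without a test, the level was 2.03% ± 0.988 for C21, 1.72% ± 0.164 for C129, 1.55% ± 0.476 for C112 and 1.35% ± 0.539 for C130 loss reads (SD, n = 8 libraries). C21 was lost in only 10 to 22 and C130 in only 9 to 30 reads of a library. Pooled over libraries, C130A reads with a gap at A147 retained 0.339% and those with a base there 1.91%.

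**Figure D4:**
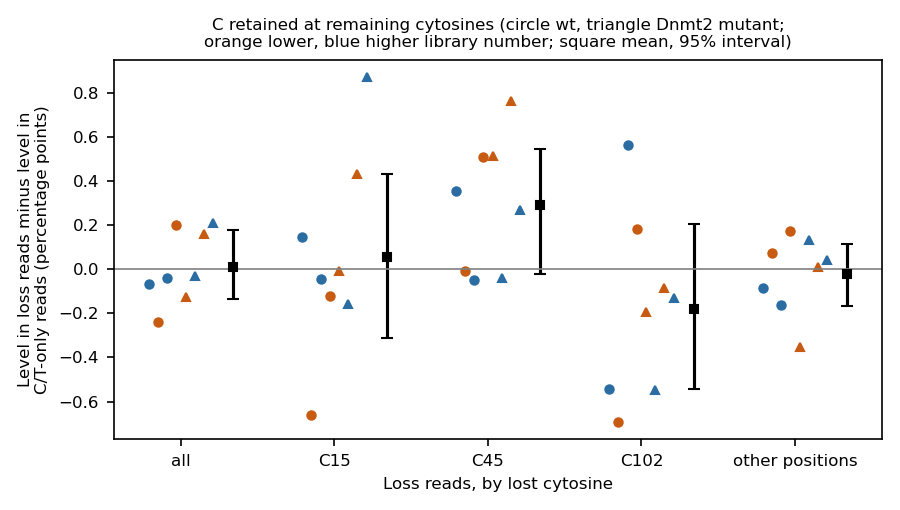
Level of retained C at remaining cytosines in loss reads minus that in reads with only C or T (percentage points), by lost position; each point is a library and the square is the mean over 8 libraries with its 95% interval. Every interval includes 0, with C45 highest at 0.289 and C102 lowest at -0.180.

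Differences between the 3 positions were tested directly. C45 minus C102 was 0.469 ± 0.482 points, higher in 7 of 8 libraries (95% interval 0.0380 to 0.801, exact permutation p = 0.0391), and did not pass adjustment over 3 pairs (adjusted p = 0.117). Without wild type 1 day, the library in which C102 loss reads were highest (2.42%), it was 0.623 points and passed (adjusted exact permutation p = 0.0469). Without any other 1 library it did not pass (adjusted exact permutation p from 0.0938 to 0.234), and the lowest value was 0.408 points. Counting identical reads once it was 0.874 points (adjusted exact permutation p = 0.0234). Reads without another difference made up 77.2% of C45G and 25.7% of C102G reads, and a retained C makes such a read distinct. The p of that setting is therefore not read as a result. C15 minus C45 was -0.232 points (interval -0.573 to 0.134, adjusted exact permutation p = 0.211) and C15 minus C102 was 0.237 points (interval -0.240 to 0.692, adjusted exact permutation p = 0.25).

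The level of retained C was also taken for each copy type, pooled over libraries, with Wilson intervals that cover counting error only. C15A reads had 1.91% with G55T (136 of 7110 calls, 1.62% to 2.26%) and 1.64% without it (87 of 5300, 1.33% to 2.02%). C102G reads had 1.49% on the diverged copy (140 of 9387, 1.27% to 1.76%) and 1.55% without the set (85 of 5477, 1.26% to 1.91%). The intervals overlapped in both pairs, and the differences were not tested. C15A with G55T came from 1 lower-numbered and 274 higher-numbered reads, and C15A without it from 177 and 30. C102G without the set came from 212 and 1. The pooled levels therefore mix copy type with library number.

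At single cytosines, the 27 differences between loss and comparison reads gave a called share of 0.0%. With the exact permutation test 0 were called, 1 had an unadjusted p under 0.05, and the smallest adjusted p was 0.633. The level was higher in loss reads at 12 cytosines and lower at 15. The 3 with the largest difference were C112 (3.16% ± 1.19 against 2.57% ± 0.417), C129 (1.08% ± 0.677 against 1.64% ± 0.460) and C130 (2.69% ± 0.539 against 2.22% ± 0.463), each with adjusted exact permutation p = 0.753 (SD, n = 8 libraries).

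The same measure was taken at reference thymines, where the deposited sequence has no cytosine that could stay unconverted. It is therefore no background for incomplete conversion. C at these thymines was 0.154% ± 0.0404 in loss reads and 0.176% ± 0.0298 in comparison reads (SD, n = 8 libraries), a difference of -0.0226 points (95% interval from the permutation test -0.0690 to 0.0270, exact permutation p = 0.281).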

How the data were processed

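Genomic DNA was bisulfite-converted, and the Invader 4 LTR was amplified in a first PCR of 35 cycles and a second of 15 cycles and read by 454 sequencing, per the labels' protocols. PCR reads without molecular identifiers are not independent molecules, so intervals cover counting error only. The deposited files held the aligned reads, the LTR sequence, and a per-read matrix with a score column that the authors computed; the score was not used. No label or header names the aligner.

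Each read was compared with the LTR sequence base by base, with the 8 libraries grouped by GEO's labels. The members, lists and tests were chosen with earlier results of these data known. Named were C15, C45, C102 and cytosines lost in at least 0.5% of reads, with up to 4 called differences of largest size for each, G55T with C15, and the 3 cytosines of largest retention difference. Copy types and library-number sets were chosen after seeing the data.

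Tests were exact sign-flip permutation tests, two-sided, over 8 libraries (256 patterns, smallest p 0.00781) or 4 stages (16 patterns), with Benjamini-Hochberg adjustment and a threshold of 0.05. With 1 library per genotype and stage, p-values measure the spread between libraries. Confidence intervals for shares were 95% Wilson intervals, and a share of 0 allows 3 reads of the total. The procedure was tested on simulated data with independent reads and the same base share in every library. That setting does not cover repeated PCR reads or the division by library number. Alternatives covered repeat reads, gaps, comparison reads, weighting, share limits, labels and left-out libraries. Python 3.11.15, numpy 2.4.6, scipy 1.17.1, statsmodels 0.14.6 and matplotlib 3.10.9 were used.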

Additional observations from a re-analysis of the deposited data

How the results depend on the processing

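Counting identical reads once moved retention most. The differences became -0.730 points for all loss reads (adjusted exact permutation p = 0.0130), -0.305 for C15, -0.0533 for C45, and -0.927 for C102 and -0.999 for other loss reads (both adjusted exact permutation p = 0.0130). C15 minus C102 became 0.622 and C45 minus C102 0.874 points (both adjusted exact permutation p = 0.0234). Reference thymines gave -0.219 points (exact permutation p = 0.00781), C112 -0.631, C130 -0.153, and the genotype difference in C15 share 0.171. With identical reads counted once, a retained C makes a read distinct, so these p-values are not read as results. The cause was not tested. Other loss reads turned to 0.0358 against all reads without a loss, 0.0170 with losses of at least 0.5% only and 0.0170 without losses near gaps. Against all reads without a loss, gap reads included, the differences were 0.0612 for all loss reads, 0.107 for C15, 0.333 for C45 and -0.125 for C102. None passed (adjusted exact permutation p from 0.195 to 0.555). With 1 library left out, retention differences ran from -0.0211 to 0.0432 points for all loss reads, -0.0591 to 0.160 for C15, -0.0485 to 0.0263 for other loss reads and 0.408 to 0.623 for C45 minus C102.

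Between genotypes, exchanging labels at heat shock and 3 days gave 2.51 points for all losses, 1.70 for C45, 3.22 for C102, 0.0843 for C112 and 0.185 for C21. Reads with a base at every cytosine gave 0.209 for C102 and 0.0228 for C112. With 1 stage left out, C15 ran from -0.757 to 0.0934, C45 from -0.862 to 0.459 and C102 from -1.18 to 1.11 points. Genotypes were paired by stage and loss reads with comparison reads by library; the labels gave no replicate numbers for a further pairing.

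The linked differences called, rare lower ones included, numbered 189, and 351 at a share of 0.2%, 323 with gaps counted, 118 against reads with C or T at all cytosines, and 181 to 194 with 1 library left out. Reads with C or T at all cytosines hold no loss by construction, so against them C102G with C15 was 0.539, C129A with C15 0.837, C102G and C129A with C21 0.0, C129A with C45 0.467 and C129A with C130 2.30 points. Genotype tests could not pass, as 4 stages allow no p below 0.13.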

Other observations

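Some further features of loss reads are given here, and their combinations were picked after they were seen. Among the 413 diverged copies, 277 also carried T9A, 206 T89A and 140 both. A gap at position 12 was on 22.5% of diverged copies and 0.824% of other reads. A further 41 C129A reads had C33G and T107G, at 0.143% to 0.322% of lower-numbered and 0.194% to 0.300% of higher-numbered libraries. C33 was among the tested positions, with 5 to 13 loss reads in a library and 5 differences called as higher. A69G, G72T and A111G, which are in the set of the diverged copy, were on 64.3%, 62.9% and 62.9% of C33 loss reads (adjusted exact permutation p = 0.0129 each).

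C130A reads with a gap at A147 retained C at 5 of 1473 calls (0.339%, 95% Wilson interval 0.145% to 0.792%). Those with a base there retained it at 46 of 2403 (1.91%, 1.44% to 2.54%). Other reads with that gap retained it at 0.617% of 16045 calls (0.507% to 0.751%). These values were not tested.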
